A study of Mus musculus with 16 samples.

Results

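The neurotrophins, the ligands of the GDNF family and their receptors were followed in RNA from mouse tail tendon fascicles, the thin collagen strands of the tail. The set comprised 8 genes taken by name from the 25719 genes of the count tables: the ligands Bdnf, Ntf3 and Gdnf, the receptors Ngfr, Ntrk2 and Ntrk3, and the co-receptors Gfra1 and Gfra2. All 8 were present in the tables, and 4 of them (Ntrk2, Ntrk3, Gfra1 and Gfra2) passed the expression filter that left 14803 genes for testing. The other 4 were too low for it and were read from a fit without the filter, over 21380 genes with at least 1 count.

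Libraries of 8 wild type (WT) samples were compared with 8 knockout (KO) samples of the genotype ScxCre;Vhlf/f. In these, Cre recombinase is driven by the control region of the tendon gene Scx and cuts a floxed Vhl, so recombination is limited to cells of the Scx lineage, whereas each library averages over all cells left in the dissected strand. The Vhl protein recognises hypoxia-inducible factors (HIF) and has them tagged for degradation. Age, sex and strain are not given in the sources used here, nor whether WT samples carried Cre or floxed alleles. Titles number the libraries without naming animals, so p-values measure the spread between these libraries.

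Neurotrophins are secreted proteins that keep neurons alive and guide their axons to a target tissue. Each binds a receptor tyrosine kinase of the Trk family, with BDNF acting on TrkB (Ntrk2) and neurotrophin 3 mainly on TrkC (Ntrk3), and all bind the shared receptor p75 (Ngfr). GDNF and its relatives neurturin and artemin bind a lipid-anchored GFRα co-receptor, which brings in the receptor tyrosine kinase RET. Tendon is innervated mainly in its surrounding sheaths, and sensory nerve ingrowth is known from painful tendon disease.

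Vhl was at 14.1 to 25.8 CPM (gene counts relative to library size, with TMM scaling factors) in WT and at 7.51 to 10.9 CPM in KO, so every library followed its label. Its log2 fold change was -1.13 (SE 0.113, adjusted p = 9.64e-08, edgeR quasi-likelihood test). The HIF targets Vegfa, Slc2a1 and Egln3 rose by 4.04, 4.39 and 6.08 on the log2 scale. All 8 tenocyte markers passed the filter, and 6 of them fell and none rose. Together they took 135800 to 385100 CPM in WT and 82210 to 183500 CPM in KO. Col1a1 alone took 65560 to 213100 CPM in WT and 40860 to 118900 CPM in KO. Total counts were 10792900 to 16379401 in WT and 10488355 to 18753254 in KO, and a count of 3, used as the floor, was worth 0.145 to 0.336 CPM. Skeletal muscle RNA varied over libraries: 14 muscle fibre markers summed to 52.6 to 4878 CPM in WT (highest in library 5) and 174 to 9733 CPM in KO, with 7572, 9733 and 9097 CPM in KO libraries 6, 7 and 8 and at most 1319 CPM in the others. Scx stood at 479 to 1251 CPM in WT library 8 and KO libraries 5, 6 and 8, and at 54.6 to 140 CPM in the others. Of 7 tested mural cell markers 4 rose and 1 fell, and the 8 listed ones summed to 354 to 473 CPM in WT and 328 to 1485 CPM in KO. Of 7 tested endothelial markers 5 rose, and the 10 listed ones summed to 30.6 to 50.2 CPM in WT and 38.2 to 499 CPM in KO. In bulk RNA, fewer cells of a type and less RNA per cell cannot be told apart.

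Across all tested genes 48.3% passed the threshold (adjusted p under 0.05), 25.6% higher and 22.7% lower in KO. No overlap between the groups was found for 19.4% (10.8% higher, 8.61% lower). Among the 4 members that passed the filter, Ntrk2 rose, Gfra1 fell, and Ntrk3 and Gfra2 did not pass. In the fit without the filter, where 38.4% of genes passed (21.4% higher, 17% lower), Bdnf and Gdnf rose, Ntf3 fell and Ngfr did not pass. The 2 of 4 members called in the filtered fit are near the background share. In 3 of the 8 members KO and WT were fully apart, Gdnf above and Ntf3 and Gfra1 below. For Gdnf the lowest KO libraries were near the floor. In the unfiltered fit 14.7% of genes had no overlap (8.48% higher, 6.26% lower).

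The series concerns HIF, so the promoters were read for the HIF core motif, ACGTG or GCGTG on either strand (CACGTG counts once on each strand). RefSeq promoter windows of 300 bases (GRCm38.p6) were available for 6 of the 8 members, 14 windows in all, and 7 of these held the motif, against 43.8% of all 32851 windows. Windows of Ntrk3 and Gfra2 were not analysed here. Matches were present in 3 of 7 windows of Bdnf, 1 of 2 of Ntf3, 1 of 2 of Gdnf and the single windows of Ngfr and Ntrk2, and not in that of Gfra1. The 250 bases upstream of the start are shown for genes that rose, Ntrk2 and Gdnf (its first window), and for ligands that fell, Ntf3 and Nrtn (neurturin), with motif matches in capitals. For Ntf3 the second window is shown. Its first window, not shown because 166 of its upstream bases are exon in GENCODE M21, holds 3 matches. They lie at chr13:58806319-58806568 (plus strand), chr15:7809798-7810047 (plus), chr6:126164961-126165210 (minus) and chr17:56757549-56757798 (minus).
Ntrk2: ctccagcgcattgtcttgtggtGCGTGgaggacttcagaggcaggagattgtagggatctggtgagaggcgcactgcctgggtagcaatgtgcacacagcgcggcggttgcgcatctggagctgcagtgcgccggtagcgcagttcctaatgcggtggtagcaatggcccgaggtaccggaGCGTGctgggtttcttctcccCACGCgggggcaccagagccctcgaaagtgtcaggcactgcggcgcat
Gdnf: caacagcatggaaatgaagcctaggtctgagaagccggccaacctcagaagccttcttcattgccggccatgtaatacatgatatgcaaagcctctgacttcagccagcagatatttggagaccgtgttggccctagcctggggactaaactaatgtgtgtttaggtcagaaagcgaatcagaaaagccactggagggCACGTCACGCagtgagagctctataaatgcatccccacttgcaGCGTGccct
Ntf3: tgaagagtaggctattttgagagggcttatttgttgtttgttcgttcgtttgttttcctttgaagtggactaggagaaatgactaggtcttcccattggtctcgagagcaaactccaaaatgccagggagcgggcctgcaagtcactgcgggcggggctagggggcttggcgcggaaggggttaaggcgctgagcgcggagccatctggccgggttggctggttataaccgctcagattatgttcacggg
Nrtn: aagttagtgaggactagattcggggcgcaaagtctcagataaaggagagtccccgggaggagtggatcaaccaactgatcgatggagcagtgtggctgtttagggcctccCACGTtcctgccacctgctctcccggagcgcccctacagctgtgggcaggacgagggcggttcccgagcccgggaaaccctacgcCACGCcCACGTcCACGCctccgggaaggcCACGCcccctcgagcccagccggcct
Ntrk2 and Gdnf have 3 matches each, Nrtn 5 and Ntf3 none in the stretch shown. Both directions of change thus occurred among genes with matches. For the Gdnf and Nrtn windows, the bases just past the RefSeq start were in no GENCODE M21 transcript of the gene. For Ntrk2 and Ntf3 they were in 1 transcript each. A match is a description of the letters and not evidence of binding.

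Among the ligands, Ntf3 (ENSMUSG00000049107, chromosome 6) fell. This gene encodes neurotrophin 3, a survival factor of proprioceptive and mechanosensory neurons. Its level in WT was 0.702 CPM at the lowest, 1.44 at the median and 2.34 at the highest, and in KO 0, 0.146 and 0.255 CPM. Every KO library lay below every WT library, and 1 KO library had no Ntf3 count. Pooled counts were 141 in WT and 18 in KO, a 10.3-fold higher level in WT (exact 95% interval 6.27 to 17.8, counting error only). The log2 fold change was -3.30 (SE 0.349, adjusted p = 9.41e-08, edgeR without the filter). Leaving out KO libraries 6, 7 and 8 gave -3.45.

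Bdnf (ENSMUSG00000048482, chromosome 2), the ligand of TrkB, rose from a level near the floor. It reached 0 to 0.199 CPM in WT (median 0.124) and 0.161, 0.743 and 1.89 CPM (lowest, median, highest) in KO. In 7 of 8 KO libraries it exceeded every WT library, and KO library 4 overlapped WT. Pooled counts of 10 and 119 gave a 9.07-fold higher level in KO (exact 95% interval 4.77 to 19.4, counting error only), and the fitted log2 fold change was 3.00 (SE 0.544, adjusted p = 1.22e-04, edgeR without the filter). The 3 highest values, 1.37, 1.89 and 1.61 CPM, came from KO libraries 6, 7 and 8, which also held the most muscle, endothelial, mural cell and adipocyte marker RNA. Their endothelial markers summed to 324, 499 and 346 CPM and at most 165 CPM in the other KO libraries, and their mural markers to 1114, 1485 and 1251 CPM and at most 684 CPM in the others. The part of these cell types in the result was not tested. Without KO libraries 6, 7 and 8 the log2 fold change was 2.07 (adjusted p = 0.00418). WT library 5 held 1 Bdnf count (0.0960 CPM). Its muscle, endothelial and mural markers summed to 4878, 50.2 and 390 CPM. With the Schwann cell score as a covariate the call was lost (1.98, adjusted p = 0.0753). The score, a mean of log2 CPM over Schwann cell markers, itself ran from 0.942 to 1.96 in WT and 1.46 to 2.73 in KO. It thus shares spread with genotype, and such a fit cannot tell Schwann cell RNA and genotype apart. In GENCODE M21 the exons of Bdnf overlap those of Gm45346 on the other strand, and the use of strand in counting is not given in the sources used here.

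Gdnf (ENSMUSG00000022144, chromosome 15), a factor made by skeletal muscle and Schwann cells that sustains motor and some sensory neurons, rose as well. WT libraries held 2 counts in all, with 6 of 8 at 0 and the highest at 0.0960 CPM. KO libraries held 94 counts, from 0.148 CPM through a median of 0.383 to 2.23 CPM in library 7. The groups did not overlap, though the lowest KO libraries were near the floor. KO libraries 2 and 4 held 2 counts each, and WT libraries 4 and 5 held 1 count each. At 0.170 and 0.161 CPM these KO libraries lay under their floors of 0.255 and 0.241 CPM. The ratio of KO to WT was 35.8 (exact 95% interval 9.65 to 300.2, counting error only), and the fitted log2 fold change was 4.54 (SE 0.843, adjusted p = 1.88e-04, edgeR without the filter). Without KO library 7 it was 3.92 (adjusted p = 1.66e-04), and without WT library 5, which held 1 of the 2 WT counts, 5.08 (adjusted p = 2.63e-04). Without KO libraries 6, 7 and 8 it was 3.41 (adjusted p = 0.00121).

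**Figure D1:**
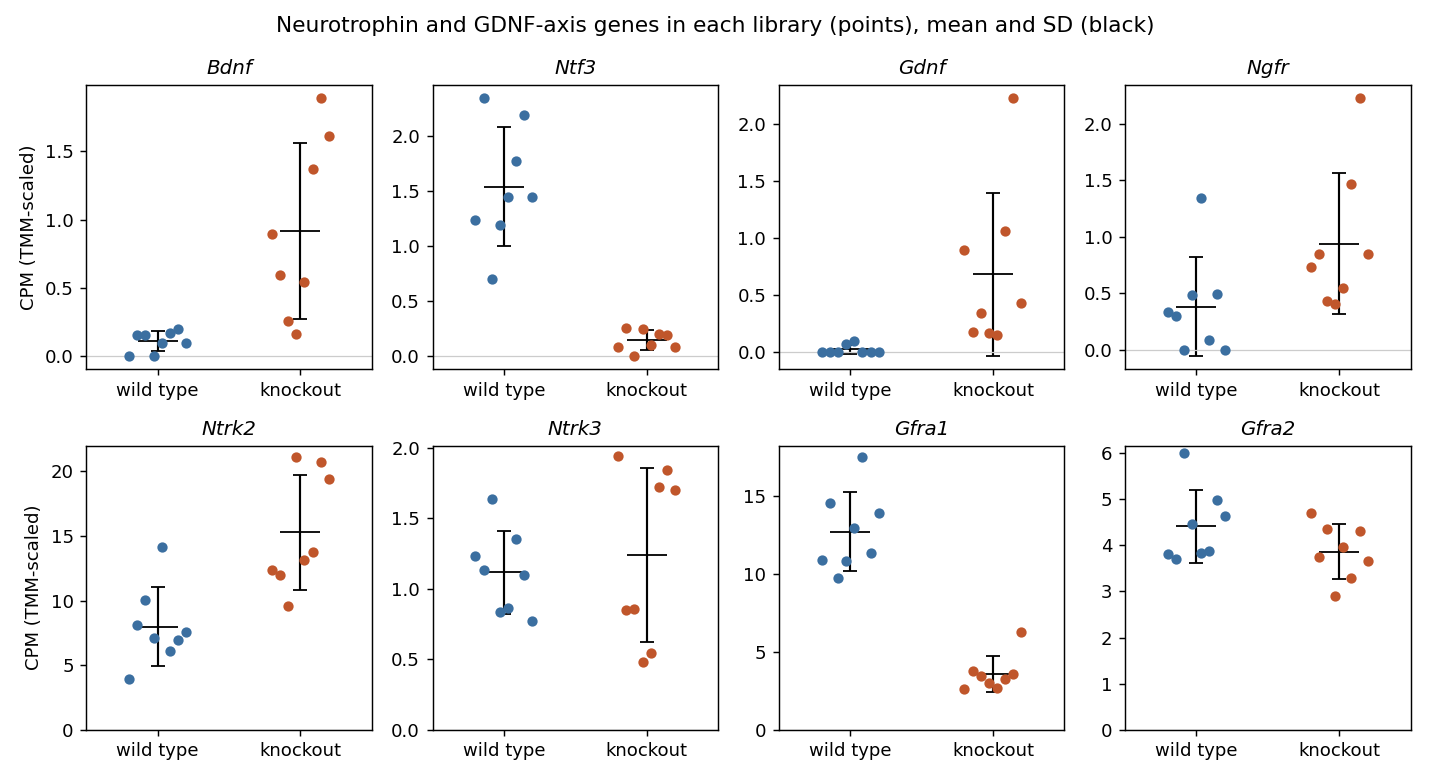
Level of each of the 8 genes in TMM-scaled CPM (vertical axes, linear, 1 scale per gene) in 8 wild type and 8 knockout libraries. Points are libraries, and black marks are the mean and SD. The groups do not overlap for Ntf3, Gdnf and Gfra1.

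Ntrk2 (ENSMUSG00000055254, chromosome 13), which encodes TrkB, rose. Its level per length was above that of Ntrk3: 0.414 CPM per kb of merged exon in WT and 0.792 in KO, against 0.0370 and 0.0412 for Ntrk3 (exon lengths from GENCODE M21). Ntrk2 levels were 3.92, 7.32 and 14.1 CPM (lowest, median, highest) in WT and 9.57, 13.5 and 21.1 CPM in KO. Means were 7.99 ± 3.03 and 15.3 ± 4.47 CPM (SD, n = 8). WT libraries 3 and 5, at 10.1 and 14.1 CPM, reached into the KO range, and 3 of 8 KO libraries exceeded all of WT. The gene rose by 0.93 on the log2 scale (SE 0.217, adjusted p = 0.00162, edgeR). The rise was 0.76 without KO libraries 6, 7 and 8 (adjusted p = 0.0173), and 0.48 with the Schwann cell score as a covariate (adjusted p = 0.211), where the call was lost. Gene counts do not separate the full-length receptor from the truncated form that lacks the kinase domain.

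Ntrk3 (ENSMUSG00000059146, chromosome 7), which encodes TrkC, the receptor of neurotrophin 3, did not pass. Levels were 0.773 to 1.64 CPM in WT (median 1.11) and 0.482 to 1.94 CPM in KO (median 1.28). KO libraries 1, 6, 7 and 8 lay above every WT library, at 1.70 CPM or more, and KO libraries 4 and 5 below every one. The log2 fold change was 0.16 (95% interval -0.44 to 0.77, adjusted p = 0.670). It was -0.29 without KO libraries 6, 7 and 8 (adjusted p = 0.500).

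Ngfr (ENSMUSG00000000120, chromosome 11) encodes p75, the shared neurotrophin receptor and a marker of immature and non-myelinating Schwann cells. It was measured at 0 to 1.34 CPM in WT (median 0.319) and at 0.402 to 2.23 CPM in KO (median 0.789). The groups overlapped, and the log2 fold change of 1.35 did not pass (95% interval 0.18 to 2.52, SE 0.557, adjusted p = 0.0633, edgeR without the filter). WT library 5 stood apart at 1.34 CPM. Without it the value was 1.94 and passed (adjusted p = 0.00662). Without KO libraries 6, 7 and 8 it was 0.63 (adjusted p = 0.443). Adding the Schwann cell score to the fit gave 0.15 (adjusted p = 0.909), and adding the muscle score gave 0.69 (adjusted p = 0.222).

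**Figure D2:**
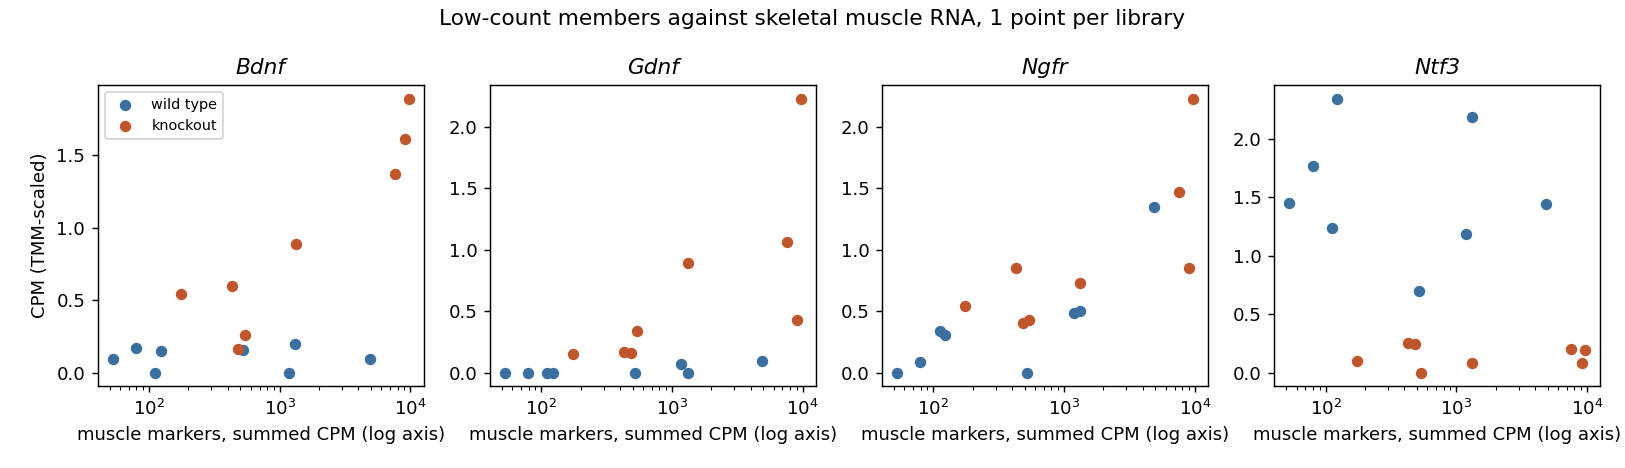
Levels of 4 low-count members in CPM against the summed CPM of 14 skeletal muscle markers (log axis), 1 point per library. Bdnf, Gdnf and Ngfr are each highest in knockout library 7, which is highest in muscle, endothelial and mural markers. In muscle-rich knockout library 8, Gdnf (0.424 CPM) is below knockout library 1 (0.890 CPM). Ngfr there (0.849 CPM) is below wild type library 5 (1.34 CPM). Ntf3 stays at or below 0.255 CPM in all 8 knockout libraries.

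Markers of nerve and of muscle precursors are given beside these genes, and their part in the results was not tested. Of 15 Schwann cell markers, 10 passed the filter, 4 rose and 1 fell, and their summed level was 441 to 514 CPM in WT and 329 to 601 CPM in KO, with Pmp22, which many fibroblasts express, at 258 to 455 CPM. The defining Schwann factor Sox10 was at 0 to 0.234 CPM in WT and 0 to 0.764 CPM in KO. Scn7a, a sodium channel gene of non-myelinating Schwann cells, was at 0.303 to 3.07 CPM in WT and 14.2 to 59.6 CPM in KO. The 9 neuron markers summed to 6.43 to 22.1 CPM in WT and 7.14 to 38.7 CPM in KO, with the neurofilament gene Nefl at 0 in all WT libraries and at most 0.0507 CPM in KO. The 4 satellite cell markers summed to 0 to 2.40 CPM in WT and to 0.643 to 14.0 CPM in KO, with 11.8 to 14.0 CPM in KO libraries 6, 7 and 8.

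In the GDNF branch 1 of the co-receptors among the members fell. Gfra1 (ENSMUSG00000025089, chromosome 19), the preferred co-receptor of GDNF, was at 9.75, 12.2 and 17.5 CPM (lowest, median, highest) in WT and at 2.59, 3.33 and 6.28 CPM in KO. All 8 KO libraries lay below all 8 WT libraries. Means were 12.7 ± 2.54 and 3.56 ± 1.17 CPM (SD, n = 8), and the gene fell by 1.84 on the log2 scale (SE 0.168, adjusted p = 2.44e-08, edgeR). Exons of Gfra1 overlap those of Gm16277 on the other strand. Gfra2 (ENSMUSG00000022103, chromosome 14), the preferred co-receptor of neurturin, was at 3.71 to 6.01 CPM in WT and 2.89 to 4.69 CPM in KO. Its log2 fold change of -0.19 (95% interval -0.47 to 0.08, adjusted p = 0.232) did not pass, and it was 0.09 when libraries were scaled to total counts. Per length, Gfra1 was above Gfra2 in WT (2.32 against 1.25 CPM per kb) and below it in KO (0.651 against 1.09 CPM per kb).

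Of 45 other genes of the pathway, 32 passed the filter, and 12 rose and 7 fell (59.4%, with 48.3% of all tested genes called). Their median log2 fold change was 0.11, against 0.02 over all tested genes. No overlap was seen for 8 of the 32, with 19.4% over all tested genes. On the total-count scale, where the median of all tested genes moved to 0.32, 21 were higher and 3 lower.

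Of 4 tested ligands 1 rose and 2 fell, and of 4 tested receptors 1 rose and 2 fell. The share called was 75% in each of these small lists, with 48.3% over all tested genes. Nrtn, which encodes neurturin, was at 1.34, 1.91 and 3.84 CPM (lowest, median, highest) in WT and at 0.0809, 0.266 and 0.424 CPM in KO. No KO library reached any WT library, and the log2 fold change was -3.26 (SE 0.323, adjusted p = 8.12e-08, edgeR). Pooled Nrtn counts were 220 in WT and 29 in KO. KO libraries held at most 6 each, and KO libraries 1, 2 and 3 held 1 each, under the floor. Ret itself was at 21.6 to 37.1 CPM in WT and 12.2 to 20.1 CPM in KO. It fell by 0.69 (SE 0.115, adjusted p = 5.86e-05), also without overlap. Gfra4, the co-receptor of persephin, fell by 1.00 (SE 0.203, adjusted p = 4.29e-04) with overlap. Artn, which encodes artemin, differed by -0.43 and did not pass (95% interval -0.90 to 0.04, adjusted p = 0.119). Among alternative GDNF receptors, Sdc3, which encodes syndecan 3, rose by 0.40 (adjusted p = 0.0374). Ncam1 differed by 0.02 and did not pass (95% interval -0.19 to 0.24, adjusted p = 0.875). Scaling to total counts gave 0.34 for Ncam1, which passed (adjusted p = 0.00183). Gdf15, a stress-induced ligand that signals through GFRAL and RET, rose from 0 to 0.224 CPM in WT to 0.849 to 2.39 CPM in KO, by 4.16 on the log2 scale (SE 0.420, adjusted p = 1.05e-07). WT libraries held 7 Gdf15 counts in all, at most 2 in each, and KO libraries 180. Gfral itself had 3 counts in WT and 3 in KO.

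Ntf5, which encodes neurotrophin 4, had 5 counts in WT and 10 in KO, too few to compare.

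**Figure D3:**
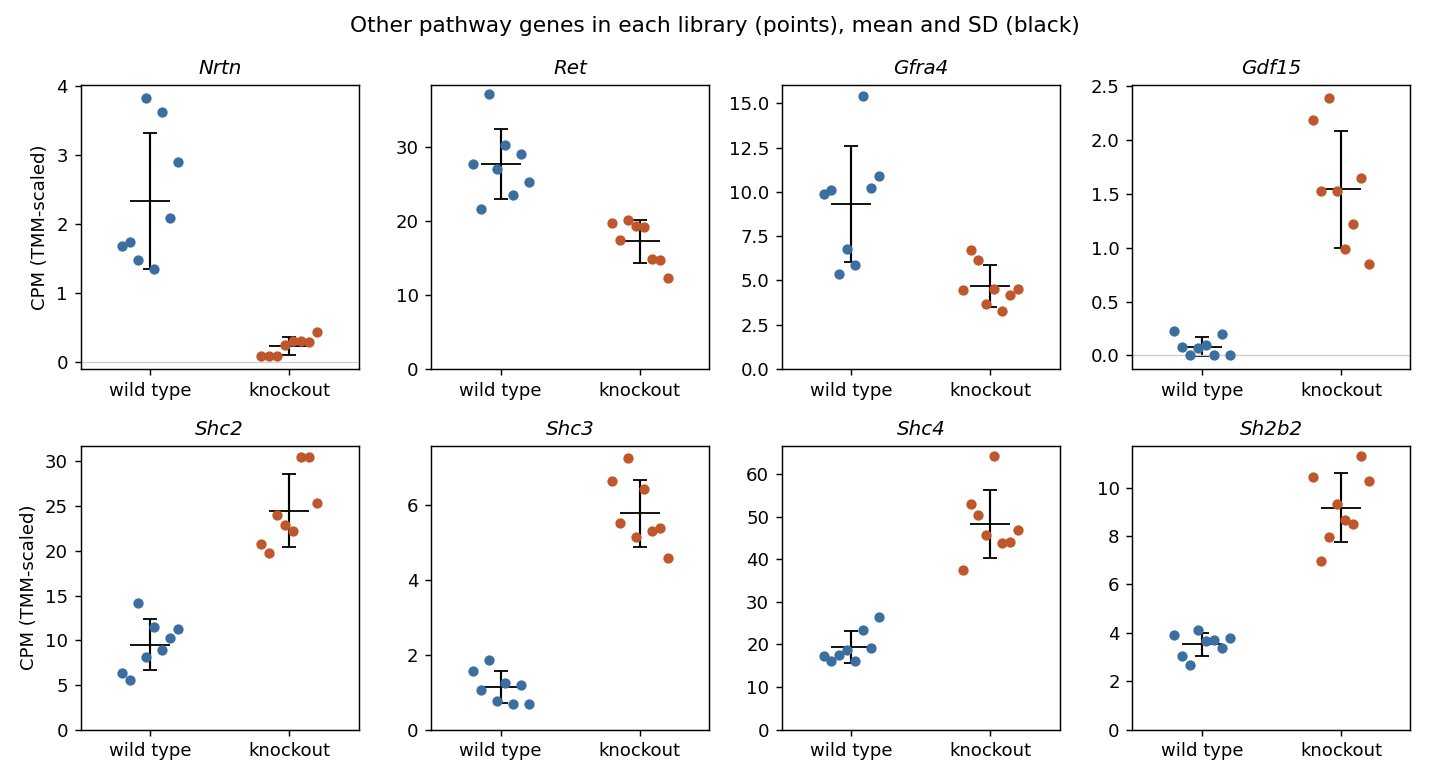
Levels of 8 other pathway genes in TMM-scaled CPM (vertical axes, linear) in 8 wild type and 8 knockout libraries, with mean and SD in black. Nrtn and Ret are lower and Gdf15, Shc2, Shc3, Shc4 and Sh2b2 higher in knockout without overlap, and Gfra4 overlaps.

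Adaptors that carry the signal of activated Trk and RET receptors were tested for 13 genes, of which 5 rose, 1 fell and 7 did not pass. The share called was 46.2%, near the 48.3% of all tested genes. The Shc family members other than Shc1 rose without overlap, Shc2 by 1.37 (9.52 ± 2.85 to 24.5 ± 4.10 CPM, SD, n = 8), Shc3 by 2.35 (1.13 ± 0.433 to 5.79 ± 0.896 CPM) and Shc4 by 1.32 (19.4 ± 3.73 to 48.2 ± 7.95 CPM), with adjusted p of 9.21e-07, 5.04e-09 and 1.50e-08 (edgeR). Shc1, the broadly expressed member, was at 99.3 ± 8.64 and 99.3 ± 5.97 CPM (SD, n = 8). Its log2 fold change was 0.00 (95% interval -0.12 to 0.12), and 0.30 with total counts. Sh2b2, an adaptor of Trk and insulin receptors, rose by 1.38 (3.53 ± 0.485 to 9.18 ± 1.43 CPM, adjusted p = 1.10e-08) without overlap. Sh2b3 was called at 0.21 and Gab1 at -0.35, both with overlap. Sh2b3 lost its call with DESeq2 size factors (adjusted p = 0.0637), and Gab1 was at -0.045 with total counts (adjusted p = 0.748). Exons of Shc4 overlap those of Eid1, and exons of Sh2b3 those of Atxn2, on the other strand.

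Of 6 tested genes for sortilin family receptors and for partners of p75 and the Trk receptors, 1 rose, 2 fell and 3 did not pass. The share called was 50%, near the 48.3% of all tested genes. Sorcs2, a partner of p75 for pro-BDNF, fell by 0.47 (adjusted p = 0.00526), and Kidins220, a scaffold of Trk receptors, fell by 0.30 (adjusted p = 0.00196). Total-count scaling gave -0.15 for Sorcs2 and 0.0024 for Kidins220. Maged1, a partner of p75, rose by 0.33. Sort1, which encodes sortilin, was at 10.4 ± 1.94 CPM in WT and 11.2 ± 8.29 CPM in KO (SD, n = 8), and its log2 fold change was 0.11 (95% interval -0.79 to 1.01, adjusted p = 0.852). Its 3 highest values, 17.2, 23.5 and 20.7 CPM, came from KO libraries 6, 7 and 8, and without these libraries Sort1 was lower in KO (-0.92, adjusted p = 0.0237).

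Of 5 tested genes listed for precursor processing (proprotein convertases and Plat), 4 rose and none fell. Over all tested genes 25.6% were higher. Without the filter 3 of the 9 listed were higher and 1, Pcsk2, lower. Plat, which encodes tissue plasminogen activator, was at 22.7 to 39.9 CPM in WT and 40.6 to 60.8 CPM in KO, a rise of 0.79 without overlap (SE 0.118, adjusted p = 1.51e-05, edgeR). The proprotein convertases Pcsk6, Pcsk5 and Pcsk7 rose by 0.54, 0.35 and 0.20 with overlap, and exons of Pcsk7 overlap Tagln and Rnf214 on the other strand. The call of Pcsk5 (adjusted p = 0.0450) was lost with DESeq2 size factors (adjusted p = 0.0554) and without the filter (adjusted p = 0.0556). Furin did not pass (0.03, adjusted p = 0.797).

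Outside the filter, 13 pathway genes were left, and 5 of them passed in the fit without it, where 38.4% of all genes passed. Those described here are Sorcs1, Dok5, Dok6 and Pcsk2, which were named after their values were seen. Sorcs1 (2.43), Dok5 (2.91) and Dok6 (4.90) were higher in KO and Pcsk2 (-1.26) lower. In WT these 3 higher genes had 5, 11 and 1 counts in all. KO libraries 6 and 7 held 29 and 31 of the 79 Dok6 counts of KO.

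**Figure D4:**
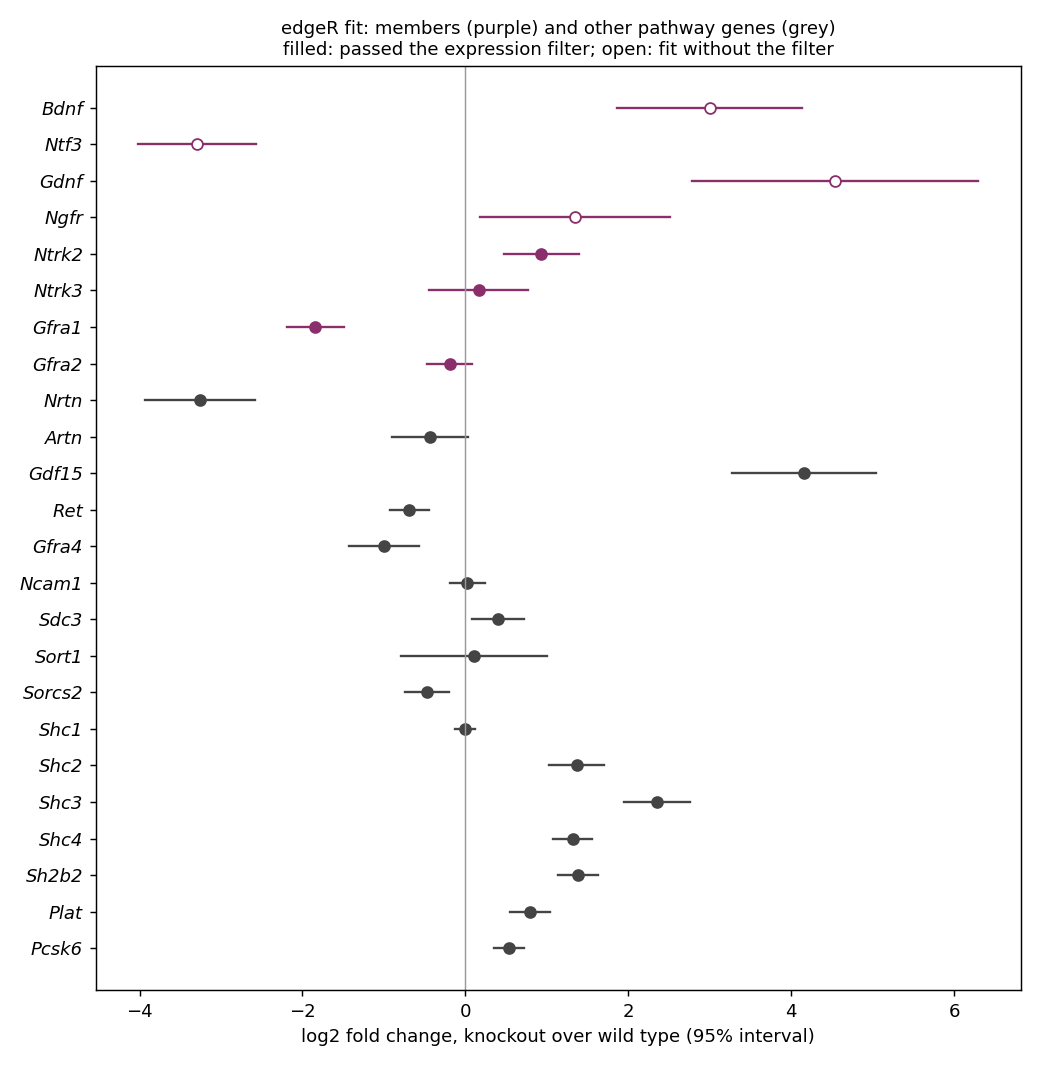
Log2 fold change of KO over WT with 95% intervals (horizontal axis) for the 8 members (purple) and 16 other pathway genes (grey). Filled points come from the filtered edgeR fit and open points from the fit without the filter, and the intervals of Ntf3, Gfra1, Nrtn, Ret, Gfra4 and Sorcs2 lie below 0.

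To see which transcripts varied with the members within a genotype, log2 CPM deviations from the genotype means were compared over the 16 libraries, with no test. Among the 3 genes with the highest Pearson r for each member were Kitl (0.833), Tcaf2 and Aim2 for Ntrk2, Ppip5k1 (0.900) and Gm37465 for Ntrk3, Tmem176b (0.815), Lrch2 and Gprasp1 for Gfra1, and Umad1 (0.792), Dsp and Map3k14 for Gfra2. These are the top of all tested genes with a mean log2 CPM of at least 1, and the points share library and depth.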

How the data were processed

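RNA sequencing libraries of tail tendon fascicles from 8 WT and 8 KO samples were grouped by their titles. For each library the authors deposited whole-number counts of 25719 Ensembl genes, per the file headers, of which 25614 matched a symbol. Per the submitters' processing notes, kallisto, featureCounts and GRCm39 were used, with no roles given. Annotation and strand are not given in the sources used here. Lengths and exon overlaps come from GENCODE M21 and promoters from RefSeq, both GRCm38, and no gene coordinates of the counts are printed.

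Counts were tested with edgeR 4.0.16 (R 4.3.3): TMM, filterByExpr on genotype, robust quasi-likelihood F test (two-sided), genotype as the only term, and Benjamini-Hochberg adjustment over all genes tested. SE is the log2 fold change divided by the square root of F. Members that failed the filter were read from the fit without it. Intervals of pooled counts are exact binomial, and they and the floor of 3 counts cover counting error only. Log2 CPM used a prior count of 2.

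Members and lists were chosen with earlier results of these data known. Named genes are all members, pathway genes past the threshold without overlap, and a few set by name, including Ntf5, Ret, Sort1 and Ncam1. Results for some genes are not reported here. Others named in the report were named after their values were seen. Over the 14096 genes averaging 20 counts or more, the closest libraries of a group differed by a chi-square of 6.56 per degree of freedom or more. On simulated counts for KO against WT (14762 genes tested, 200 changed), 94.1% of 2-fold and 98.3% of 4-fold changes were called, and 4.93% of calls were false. The simulation gave every gene the same dispersion and changed few genes, whereas 48.3% were called in the data. Its rates therefore do not carry over to these data, nor to members outside the filter.

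Alternatives were DESeq2 size factors, total counts, no filter, a mean count of at least 10, DESeq2 1.42.0, limma-voom 3.58.1 with quality weights, the replicate number as a block, muscle or Schwann cell scores as covariates, and each library left out. Leaving out KO libraries 6, 7 and 8, or the libraries highest in Scx (KO 5, 6 and 8, WT 8), was chosen after seeing the data.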

Additional observations from a re-analysis of the deposited data

Results flagged for a closer look

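In 43 checks of 8 libraries each, 4 had a highest library that stood apart from the rest. The cutoff, a gap of 0.526 of the range, is passed about 1 time in 20 by normally distributed values. Low counts are skewed and can pass it more often, so that rate does not apply here. Ngfr was at 1.34 CPM in WT library 5, and the next WT library was at 0.497 CPM. Gdnf was at 2.23 CPM in KO library 7 and at 1.06 CPM in the next. Gfra1 was at 6.28 CPM in KO library 8 against 3.74 CPM in the next, still below the lowest WT library. Ntf5 was at 0.255 CPM in KO library 8, which is 3 counts. Their cause was not tested.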

How the results depend on the processing

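Of 691 recomputed values, 648 were classed as unchanged. For fold changes this means the same direction and side of the threshold. For counts of genes past the threshold it means a count near that of the main fit. Ntf3, Gdnf and Gfra1 kept direction and side of the threshold under every alternative that gave a value, and Vhl did too. With total counts, 8270 genes were higher and 1415 lower, against 3792 and 3359, so the share of calls that were higher moved from 53.0% to 85.4%. Pathway genes became 21 higher and 3 lower, Ngfr passed at 1.66, and Gfra2 turned to 0.092. With the Schwann cell score as a covariate, 2484 genes were higher and 2152 lower, and 2 pathway genes were lower in place of 7. Bdnf was then 1.98 and Ntrk2 0.48, neither past the threshold, and the cause was not tested. The score itself ran higher in KO than in WT, so it shares spread with genotype. Ngfr passed with limma-voom at 1.67. Ntrk3 turned to -0.15 with the muscle score as a covariate and to -0.29 without KO libraries 6, 7 and 8. Ncam1 turned to -0.0078 with limma-voom. Sort1 turned to -0.17 with limma-voom, -0.48 with the muscle score, -0.69 with the Schwann score, -0.92 without KO libraries 6, 7 and 8 and -0.10 without the Scx-high libraries, and Ntf5 in the last 4 settings to -0.37, -2.51, -0.29 and -0.46. With each library left out in turn, counts ran from 3590 to 3808 higher and 3192 to 3403 lower, and pathway counts from 9 to 12 and 6 to 8. Ranges were 1.02 to 1.94 for Ngfr, -0.15 to 0.27 for Sort1 and -0.047 to 0.072 for Ncam1. The replicate numbers did not pair the libraries (correlations of deviations from -0.397 to 0.394 over 8 pairs, with replicate 2 alone correlating best with its own number). With the replicate block, 3643 genes were higher and 3367 lower, no member's call changed, and Sort1 was -0.23. Depth limited Bdnf, Gdnf, Ntf3 and Ngfr, which in 1 of the groups had 10, 2, 18 and 34 counts.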
